A study of Mus musculus with 12 samples.

Results

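The antioxidant, glutathione and NRF2 target genes are a set of 44 genes chosen by symbol. They cover the NRF2 regulators, glutathione synthesis and conjugation, the thioredoxin and peroxiredoxin system, catalase and the superoxide dismutases, NADPH production, the NADPH oxidase NOX4 with its partner subunit p22phox, and the ferritins. All 44 were among the 23282 rows of the deposited count tables, each as 1 row. The rule names the genes and uses no measured value, but the set was chosen with earlier results of these data known.

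The libraries came from C22 cells, a mouse lung club (Clara) cell line derived from H-2Kb-tsA58 transgenic mice, which is a single immortalised clone that multiplies with gamma-interferon and differentiates without it. Differentiated cells carried either a negative control (NC) or siPDCD5, a knockdown of Pdcd5, and all were serum starved for 2 h. They were then left without added TGF-β1 or given 20 ng/ml TGF-β1 for 24 h, so there were 4 groups of 3 libraries each: NC and NC + TGF-β1 for the control cells, siPDCD5 and siPDCD5 + TGF-β1 for the knockdown. The study asked what PDCD5 contributes to the transcriptional response of club cells to TGF-β1. Neither the age of the cultures nor whether the 3 libraries of a group came from separate cultures was given, so p-values measure only the spread between these libraries, which may be technical. Replicate numbers name libraries and imply no order.

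The 12 libraries held 12809857 to 17714828 counts, and 3 counts correspond to 0.165 to 0.239 CPM, the unit of level used here, which is the count relative to the TMM-scaled library size. Pdcd5 itself lay at 65.1 to 73.5 CPM in NC and 66.3 to 69.7 CPM in NC + TGF-β1, against 20.0 to 22.1 CPM in siPDCD5 and 21.8 to 26.3 CPM in siPDCD5 + TGF-β1. Of 9 club cell markers, 4 (Scgb3a2, Cyp2f2, Upk3a and Reg3g) had no count in any library and the defining secretoglobin Scgb1a1 reached at most 1 count. Aldh1a1 was the only one with enough counts to test, and it carried the list's sum of 547 to 556 CPM in NC and 292 to 326 CPM in siPDCD5, which was 231 to 245 CPM and 155 to 165 CPM with TGF-β1. The 6 fibroblast genes, which include Col1a1, summed to 3749 to 3985 CPM in NC and 2538 to 3119 CPM in siPDCD5, and to 7420 to 8042 CPM and 5589 to 5943 CPM with TGF-β1. Col1a1 and Col3a1 carried this sum, and other genes of the list moved otherwise. Mean Dcn was 95.7 CPM in NC and 144 CPM in siPDCD5, against 22.6 and 41.5 CPM with TGF-β1. Mean Col1a2 was 3.58 and 12.05 CPM, against 24.7 and 39.5 CPM with TGF-β1. Mean Pdgfra was 5.901 and 5.41 CPM, against 4.61 and 3.795 CPM with TGF-β1. The 8 epithelial genes summed to 834 to 879.8 CPM in NC and 759.6 to 895 CPM in siPDCD5, and to 1292 to 1726 CPM and 1649 to 1722 CPM with TGF-β1. Krt8 and Krt18, which rose, carried that sum, and Epcam, Cldn4 and Nkx2-1 had 2 counts or fewer. Foxa2 moved the other way. Its mean was 171.6 CPM in NC and 202.5 CPM in siPDCD5, against 50.3 and 71.2 CPM with TGF-β1. Mean Cdh1 was 3.18 and 2.37 CPM, against 2.12 and 2.18 CPM with TGF-β1. The 4 basal genes summed to 10.2 to 11.98 CPM in NC and 1.99 to 4.51 CPM in siPDCD5, and to 169 to 209.7 CPM and 75.2 to 88.0 CPM with TGF-β1. Nearly all of this was Krt14, and Krt5 and Trp63 had 3 counts or fewer. The alveolar type 2, ciliated, endothelial and leukocyte lists each stayed at or under 26.7 CPM. The club, basal and fibroblast sums moved with TGF-β1 and with the knockdown alongside the members described here, and the epithelial sum moved with TGF-β1. Their part in the members' results was not tested. In bulk RNA, fewer cells of a type and less RNA per cell cannot be told apart. NC + TGF-β1 replicate 2 stood apart from the other 11 libraries, with a mean correlation to its own group of 0.976, and siPDCD5 replicate 1 deviated from its group in many of the same members. Between them, these libraries took the same end of their groups in 30 of 43 members, both highest in 12 and both lowest in 18. This was not counted over all genes, so whether it is particular to the members is not known.

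NRF2, encoded by Nfe2l2, is a transcription factor that is held in the cytoplasm and marked for degradation by KEAP1. When electrophiles or oxidants modify KEAP1, NRF2 accumulates, pairs with small MAF proteins and binds antioxidant response elements in the promoters of detoxifying and antioxidant genes. Club cells are known for xenobiotic metabolism, and glutathione transferases and other conjugating enzymes are part of that role.

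The antioxidant response element core was searched as TGACNNNGC on both strands of the 250 bases upstream of the annotated starts, from RefSeq on GRCm38.p6. Entries were found for 38 members, with 48 start sites among them. The core was in 8 of these 48 windows (16.7%) and in 10.2% of the 32851 windows of all genes. The 8 windows are shown because they hold the element through which NRF2 acts, and this set was chosen after values were seen. The RefSeq starts can differ from the GENCODE gene positions given below. The Txnrd1, Mgst1 and G6pdx windows, and part of the Gstm5 window, lie within the GENCODE span of their gene. Each is printed 5′ to 3′ on the strand that reads TGAC, with the core in capitals and 10 bases on each side.
Nfe2l2, chr2:75704885-75704913 minus strand, 240 bases before the start: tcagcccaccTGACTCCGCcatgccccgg
Gclm, chr3:122245413-122245441 minus strand, 134 bases before the start: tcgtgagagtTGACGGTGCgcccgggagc
Gstm5, chr3:107895802-107895830 plus strand, 42 bases before the start: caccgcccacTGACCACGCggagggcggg
Mgst1, chr6:138140461-138140489 minus strand, 56 bases before the start: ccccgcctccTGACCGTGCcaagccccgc
Txnrd1, chr10:82859104-82859132 minus strand, 92 bases before the start: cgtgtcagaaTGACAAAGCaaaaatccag
Prdx1, chr4:116685456-116685484 minus strand, 133 bases before the start: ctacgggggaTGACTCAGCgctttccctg
Sod1, chr16:90220696-90220724 minus strand, 56 bases before the start: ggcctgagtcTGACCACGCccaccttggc
G6pdx, chrX:74428919-74428947 plus strand, 57 bases before the start: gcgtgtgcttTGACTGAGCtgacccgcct
The Prdx1 core overlaps the AP-1 motif TGACTCA, which was in 4 of the 48 member windows (8.33%) and in 4.46% of all windows. Of these 8 members, only Nfe2l2 passed the threshold in any of the 4 comparisons between groups. The share was 22.2% over all genes and 34.9% over the tested members. With only 8 members, nothing is concluded from this count.

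Of the members called in at least 1 comparison described below, the 6 with the largest fitted log2 fold change in either direction were Gsta4, Nox4, Gstm1, Mgst3, Sod3 and Fth1, and their upstream windows were searched for CAGAC, the SMAD-binding CAGA box, on both strands. Gsta4 and Sod3 had no entry. CAGAC or its reverse complement is in capitals, and 250 bases are printed for the 2 members that held it. The Nox4 window lies within the GENCODE span of the gene, before a later RefSeq start.
Nox4, chr7:87246399-87246648 plus strand: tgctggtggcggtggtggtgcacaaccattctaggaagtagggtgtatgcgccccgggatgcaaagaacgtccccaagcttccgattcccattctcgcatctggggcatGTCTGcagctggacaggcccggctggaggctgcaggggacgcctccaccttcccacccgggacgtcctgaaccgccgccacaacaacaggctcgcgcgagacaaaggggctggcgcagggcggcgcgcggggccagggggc
Gstm1, chr3:108017974-108018223 minus strand: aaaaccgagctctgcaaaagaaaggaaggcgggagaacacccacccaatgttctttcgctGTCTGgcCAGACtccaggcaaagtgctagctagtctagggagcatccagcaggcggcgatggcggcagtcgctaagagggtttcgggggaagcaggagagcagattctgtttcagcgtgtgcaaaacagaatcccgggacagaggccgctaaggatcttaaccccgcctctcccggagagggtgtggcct
Mgst3 and Fth1 held neither motif in this window. Across the set, CAGAC was in 16 of 48 windows (33.3%) and in 42.2% of all windows, so it was no more frequent among the members. A match describes letters and not a bound site.

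Gene-wise differences were tested with edgeR's quasi-likelihood test on the counts of all 4 groups, and a gene was called when its adjusted p over the 12425 genes tested was under 0.05. Of the 44 members, 43 passed the filter on low counts. Gpx3, the secreted glutathione peroxidase, had 0 to 7 counts in a library and was not tested. Across the 4 comparisons between groups, 15 of the 43 were called at least once, 34.9% against 22.2% of all genes.

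TGF-β1 moved a minority of the members, and Gsta4, Gstm1, Gclc, Nfe2l2 and Fth1 fell in both cell states while Sod3 rose in both. In NC cells 3 members were called higher, which is 6.98% against 8.57% of all genes, and 6 were called lower, which is 14% against 6.77% of all genes. In siPDCD5 cells 5 were called higher, 11.6% against 8.5% of all genes, and 7 lower, 16.3% against 7.61% of all genes. The groups did not overlap in 13 members (30.2%, against 29.6% of all genes) in NC cells and in 18 members (41.9%, against 36.1% of all genes) in siPDCD5 cells. The median log2 fold change of the 43 members was 0.05 in NC cells, where that of all genes was 0.0050, and -0.03 in siPDCD5 cells, where that of all genes was also -0.03. Leaving out NC + TGF-β1 replicate 2 turned the NC median to -0.0048 and turned the direction of 12 members in NC cells (Nqo1, Gsr, Gpx4, Gstm5, Txn1, Txnrd1, Prdx1, Prdx3, Prdx5, Sod1, Sod2 and Cyba), none of which was called. Leaving out siPDCD5 replicate 1 turned 9 uncalled members in siPDCD5 cells (Nqo1, Hmox1, Gclm, Gpx1, Prdx1, Prdx3, Sod1, Sod2 and Tkt). The median there was 0.02 without siPDCD5 + TGF-β1 replicate 1.

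Pdcd5 knockdown moved fewer. Without TGF-β1, Ftl1 was called higher, 2.33% of the members against 0.901% of all genes, and Gpx8 and Sod3 lower, 4.65% against 2.54% of all genes. With TGF-β1, no member was called higher, where 0.33% of all genes were, and Nox4 alone was called lower, 2.33% against 1.22% of all genes. Groups did not overlap in 10 members (23.3%, against 23.1%) without TGF-β1 and in 12 members (27.9%, against 18.9%) with it. The member medians were 0.08 without TGF-β1 and 0.03 with it, where those of all genes were 0.02 and -0.02. The knockdown comparisons and the TGF-β1 comparisons share libraries, so their counts are not independent.

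**Figure D1:**
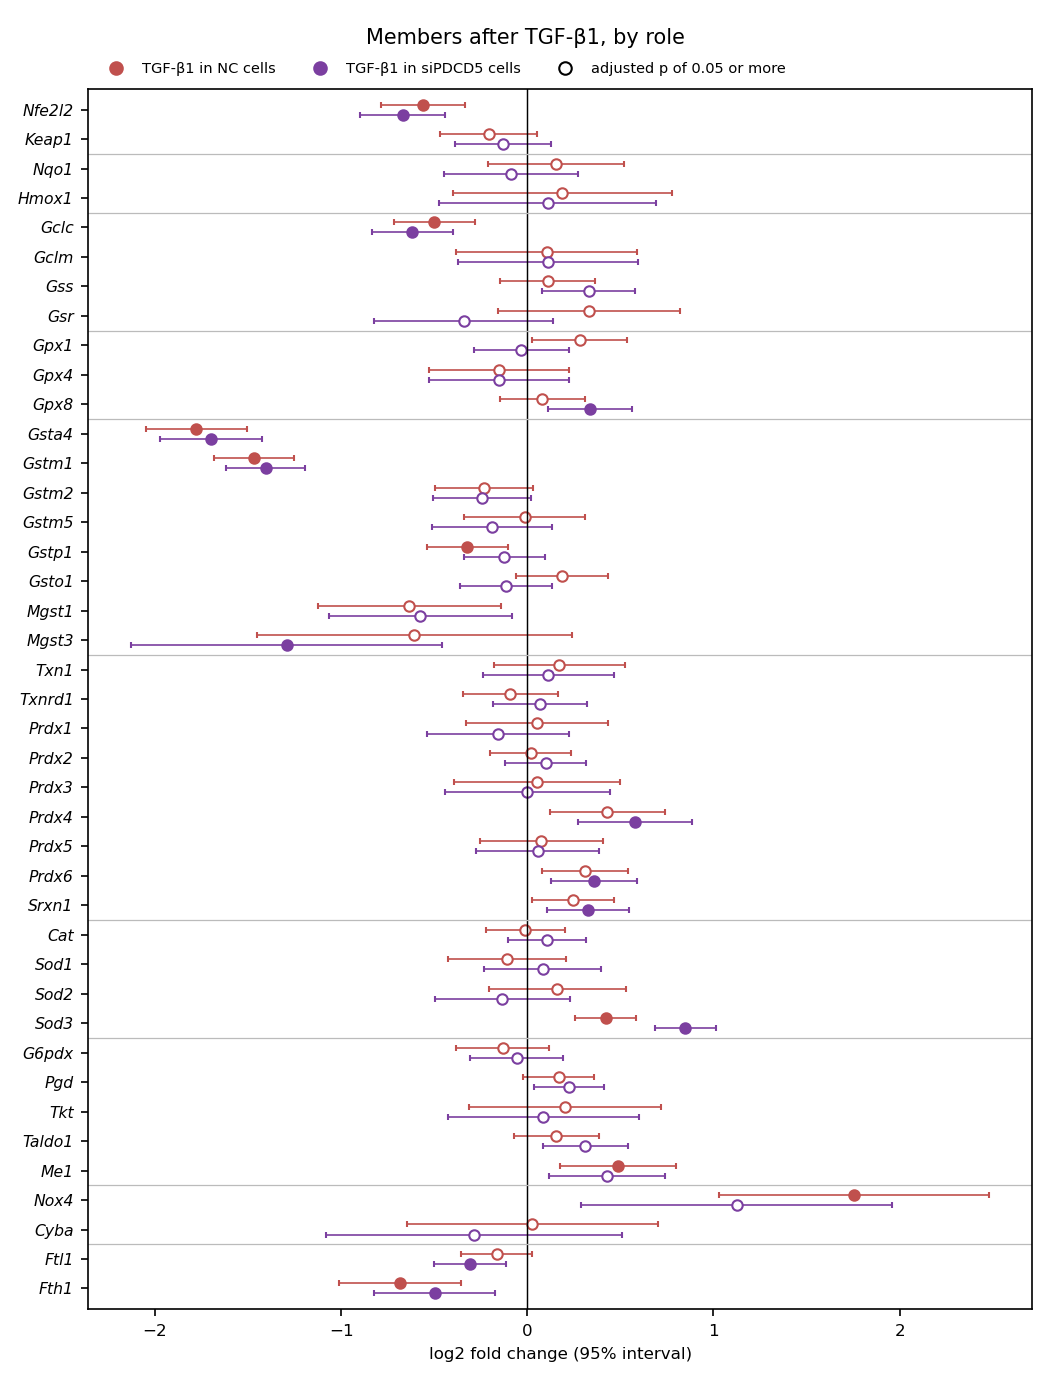
Log2 fold change after TGF-β1 in NC cells (red) and in siPDCD5 cells (purple) for the members, ordered by role with grey lines between roles; points are edgeR estimates, bars are 95% intervals, and filled points have an adjusted p under 0.05. Gpx3, Gpx7 and Gstt1, with the lowest counts, are not drawn; Gsta4 and Gstm1 lie farthest to the left in both and Nox4 farthest to the right, while most members lie near 0.

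Of the regulators, Nfe2l2 (chr2:75675513-75704641, minus strand), the gene of NRF2, fell after TGF-β1 in both cell states. Its level was 205, 198 and 204 CPM in untreated NC, 137, 117 and 157 in NC + TGF-β1, 189, 227 and 225 in untreated siPDCD5 and 133, 136 and 134 in siPDCD5 + TGF-β1. All 6 libraries with TGF-β1 lay below all 6 without it. The change was called in NC cells (log2 fold change -0.56, SE 0.11, edgeR adjusted p = 0.00186) and in siPDCD5 cells (log2 fold change -0.67, SE 0.11, edgeR adjusted p = 0.000463). Knockdown left no difference past the threshold, with log2 fold changes of 0.08 (95% interval -0.15 to 0.31) without and -0.03 (95% interval -0.26 to 0.20) with TGF-β1.

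Keap1 (chr9:21229730-21239361, minus strand), the adaptor that directs NRF2 to degradation, was at 97.9, 83.3 and 94.4 CPM in untreated NC, 85.4, 68.2 and 85.1 in NC + TGF-β1, 88.1, 97.4 and 101 in untreated siPDCD5 and 84.2, 101 and 76.97 in siPDCD5 + TGF-β1. Its groups overlapped in every comparison, and the TGF-β1 log2 fold change was -0.21 (95% interval -0.47 to 0.05) in NC cells and -0.13 (95% interval -0.39 to 0.12) in siPDCD5 cells.

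Nqo1 and Hmox1, NRF2 target genes for quinone reduction and haem breakdown, passed the threshold in none of the comparisons. Nqo1 (chr8:107388225-107403206, minus strand) was at 23.3, 20.5 and 21.7 CPM in untreated NC, 21.7, 31.6 and 19.5 in NC + TGF-β1, 31.96, 22.9 and 24.3 in untreated siPDCD5 and 24.03, 24.4 and 26.1 in siPDCD5 + TGF-β1. In NC + TGF-β1 and in siPDCD5, 1 library was far above the other two. Hmox1 (chr8:75093621-75100589, plus strand) was at 82.1, 78.7 and 83.5 CPM in untreated NC, 112, 54.9 and 111 in NC + TGF-β1, 59.5, 144 and 105 in untreated siPDCD5 and 118, 117 and 98.2 in siPDCD5 + TGF-β1. NC + TGF-β1 replicate 2 and siPDCD5 replicate 1 were the lowest 2 of the 12 libraries. The TGF-β1 log2 fold change in NC cells was 0.15 (95% interval -0.21 to 0.52) for Nqo1 and 0.19 (95% interval -0.40 to 0.78) for Hmox1, and in siPDCD5 cells -0.09 (95% interval -0.45 to 0.27) and 0.11 (95% interval -0.47 to 0.69). The knockdown log2 fold change without TGF-β1 was 0.27 (95% interval -0.09 to 0.63) for Nqo1 and 0.34 (95% interval -0.25 to 0.93) for Hmox1.

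Glutathione is made by glutamate-cysteine ligase, with a catalytic subunit from Gclc and a modifier subunit from Gclm, and by glutathione synthetase from Gss. Gclc (chr9:77754535-77794485, plus strand) was at 187, 169 and 170.3 CPM in untreated NC, 130.5, 118 and 125 in NC + TGF-β1, 195, 244 and 194 in untreated siPDCD5 and 146, 136 and 131 in siPDCD5 + TGF-β1. All libraries with TGF-β1 were below all libraries without it, and the fall was called in NC cells (log2 fold change -0.50, SE 0.10, edgeR adjusted p = 0.00315) and siPDCD5 cells (log2 fold change -0.62, SE 0.10, edgeR adjusted p = 0.000603). Gclc was also higher in every siPDCD5 library than in every NC library of the same treatment, but neither difference passed the threshold (log2 fold change 0.27, SE 0.10, edgeR adjusted p = 0.197 without TGF-β1 and 0.15 on the log2 scale with it). Gclm (chr3:122245557-122270732, plus strand) was at 33.2, 36.3 and 30.02 CPM in untreated NC, 38.9, 21.8 and 46.3 in NC + TGF-β1, 22.7, 38.5 and 33.99 in untreated siPDCD5 and 34.97, 33.8 and 34.3 in siPDCD5 + TGF-β1, and its groups overlapped in each comparison. Its TGF-β1 log2 fold change was 0.10 (95% interval -0.38 to 0.59) in NC cells and 0.11 (95% interval -0.37 to 0.59) in siPDCD5 cells. Whether Gclc and Gclm differ in response was not tested.

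Gss was not called in any comparison; its group means were 19.7 ± 0.968 in untreated NC, 21.3 ± 1.93 in NC + TGF-β1, 21.8 ± 1.98 in untreated siPDCD5 and 27.4 ± 2.76 in siPDCD5 + TGF-β1 CPM (SD, n = 3 each), with every siPDCD5 + TGF-β1 library above all others. Gsr, glutathione reductase, which regenerates reduced glutathione, was at 14.2, 18.2 and 20.4 CPM in untreated NC, 15.5, 31.8 and 19.2 in NC + TGF-β1, 27.97, 24.5 and 19.7 in untreated siPDCD5 and 20.1, 16.7 and 20.2 in siPDCD5 + TGF-β1. It had a TGF-β1 log2 fold change of 0.33 (95% interval -0.16 to 0.82) in NC and -0.34 (95% interval -0.82 to 0.14) in siPDCD5 cells. The NC value rested on NC + TGF-β1 replicate 2, the highest library of its group, and was -0.02 without it.

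Among the members of the glutathione peroxidase family, Gpx8, an enzyme of the endoplasmic reticulum, was the only one called. Gpx8 (chr13:113042753-113046410, minus strand) was at 116, 116 and 105 CPM in untreated NC, 122, 103 and 131 in NC + TGF-β1, 75.1, 93.1 and 84.1 in untreated siPDCD5 and 107, 109.9 and 103 in siPDCD5 + TGF-β1. The 3 siPDCD5 libraries were the lowest 3 of all 12. The knockdown without TGF-β1 (log2 fold change -0.42, SE 0.11, edgeR adjusted p = 0.0449) and TGF-β1 in siPDCD5 cells (log2 fold change 0.34, SE 0.11, edgeR adjusted p = 0.0424) passed the threshold narrowly, and both comparisons contain those 3 libraries. Each call was lost when single libraries were left out: the knockdown call in 9 of 12 such fits (adjusted p 0.0657 to 0.176, kept only without NC + TGF-β1 replicate 2 or 3 or siPDCD5 replicate 2), and the TGF-β1 call in 8 of 12 (0.0564 to 0.136, kept only without NC replicate 3, NC + TGF-β1 replicate 2 or 3 or siPDCD5 replicate 2). The knockdown call was also lost with only the 6 libraries compared (adjusted p 0.0505), and the TGF-β1 call with upper-quartile factors (0.0542) and without the filter on low counts (0.0521). Gpx8 overlaps Cdc20b on the opposite strand, and whether the counting used strand was not stated, so reads of the pair may not be separated. Such an overlap, with the same limit, was found for 14 members: Keap1, Gclm, Gss, Gpx8, Gstm5, Gsto1, Txnrd1, Prdx2, Prdx5, Sod1, G6pdx, Me1, Cyba and Ftl1.

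Gpx1, the cytosolic peroxidase, and Gpx4, which reduces lipid peroxides, were not called. For Gpx1 the log2 fold change of TGF-β1 was 0.28 (95% interval 0.03 to 0.54) in NC and -0.03 (95% interval -0.29 to 0.22) in siPDCD5 cells. Gpx4 shared 87.4% of the 50-base windows in the last 400 bases of its transcripts with other genes, so its counts are uncertain, and its group means were 132 ± 4.45 in untreated NC, 119 ± 33.6 in NC + TGF-β1, 143 ± 28.3 in untreated siPDCD5 and 129 ± 6.497 in siPDCD5 + TGF-β1 CPM (SD, n = 3 each). Gpx7 had 0 to 20 counts in a library, with 0, 4 and 0 counts in siPDCD5, and no fold change is given.

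Glutathione transferases conjugate glutathione to electrophiles. Of 9 tested, 3 fell and none rose in NC cells (33.3% lower, against 6.77% of all genes), and 3 fell and none rose in siPDCD5 cells (33.3%, against 7.61%), with Gsta4 and Gstm1 in both. The third in each, Gstp1 and Mgst3, lost its call under some alternatives. Gsta4 (chr9:78182774-78209349, plus strand), an alpha-class enzyme known for conjugating the lipid peroxidation product 4-hydroxynonenal, was at 54.7, 54.7 and 55.7 CPM in untreated NC, 16.6, 12.9 and 18.6 in NC + TGF-β1, 39.3, 46.4 and 42.6 in untreated siPDCD5 and 13.2, 12.3 and 13.98 in siPDCD5 + TGF-β1. The libraries with TGF-β1 did not overlap those without, and the fall was called in NC cells (log2 fold change -1.78, SE 0.13, edgeR adjusted p = 2.45e-07) and siPDCD5 cells (log2 fold change -1.70, SE 0.13, edgeR adjusted p = 4.56e-07), at levels 3.43-fold and 3.25-fold lower. Untreated siPDCD5 libraries were also below untreated NC libraries, without reaching the threshold (log2 fold change -0.36, SE 0.12, edgeR adjusted p = 0.133).

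Gstm1 (chr3:108012255-108017973, minus strand), a mu-class enzyme, was at 322, 316 and 318 CPM in untreated NC, 113, 120.5 and 112 in NC + TGF-β1, 372, 290.3 and 354 in untreated siPDCD5 and 119, 138 and 127 in siPDCD5 + TGF-β1. The 6 libraries with TGF-β1 all lay far below the other 6. The fall was called in NC cells (log2 fold change -1.47, SE 0.10, edgeR adjusted p = 1.66e-07) and in siPDCD5 cells (log2 fold change -1.41, SE 0.10, edgeR adjusted p = 2.46e-07), and corresponded to 2.77-fold and 2.65-fold lower levels. Knockdown gave a log2 fold change of 0.09 (95% interval -0.12 to 0.30) without TGF-β1. Gstm1 shared 24.1% of its 3′ windows with Gstm3 and 2 further genes, so its reads and those of the copies may not be separated. Its mu-class relatives Gstm2 and Gstm5 were not called, with TGF-β1 log2 fold changes of -0.23 and -0.01 in NC cells and -0.24 and -0.19 in siPDCD5 cells.

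Mgst3 (chr1:167371966-167393841, minus strand), a microsomal transferase, was at 6.39, 8.16 and 7.600 CPM in untreated NC, 2.55, 8.37 and 3.58 in NC + TGF-β1, 13.4, 8.16 and 8.11 in untreated siPDCD5 and 4.16, 2.08 and 5.71 in siPDCD5 + TGF-β1. TGF-β1 lowered it in siPDCD5 cells (log2 fold change -1.29, SE 0.39, edgeR adjusted p = 0.0361), where the groups did not overlap. In NC cells NC + TGF-β1 replicate 2 was above all NC libraries and the log2 fold change was -0.61 (95% interval -1.45 to 0.24); without that library Mgst3 was called in NC cells too. The call in siPDCD5 cells was lost in 6 of 12 fits that left out 1 library (any NC library, siPDCD5 replicate 1 or siPDCD5 + TGF-β1 replicate 1 or 2; adjusted p 0.0513 to 0.141). Mgst1, its microsomal relative, had log2 fold changes of -0.63 (95% interval -1.12 to -0.14) and -0.57 (95% interval -1.07 to -0.08) with adjusted p of 0.0822 and 0.111 by edgeR.

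Gstp1 (chr19:4035407-4037985, minus strand), the pi-class enzyme, was at 194, 179.8 and 180.0 CPM in untreated NC, 164, 129 and 151 in NC + TGF-β1, 191, 207 and 233 in untreated siPDCD5 and 185, 202 and 191 in siPDCD5 + TGF-β1. NC + TGF-β1 was the lowest group, below all other libraries. It was called lower after TGF-β1 in NC cells (log2 fold change -0.32, SE 0.10, edgeR adjusted p = 0.0464), but the call was lost in 9 of 12 fits without 1 library (adjusted p 0.0575 to 0.157; kept only without NC + TGF-β1 replicate 1 or siPDCD5 replicate 1 or 3) and with only the 6 libraries compared (0.0977). With TGF-β1, Gstp1 was higher in every siPDCD5 library than in every NC library (log2 fold change 0.38, SE 0.10, edgeR adjusted p = 0.0819). Gstp1 shared 78.3% of its 3′ windows with Gstp2 and a pseudogene, so these counts are uncertain. Gsto1 was not called, with TGF-β1 log2 fold changes of 0.19 and -0.11. Gstt1, of the theta class, had only 2 to 16 counts in a library, with 16, 13 and 9 in NC against 5, 5 and 4 in siPDCD5; it was not called (edgeR adjusted p = 0.0816 for the knockdown without TGF-β1).

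**Figure D2:**
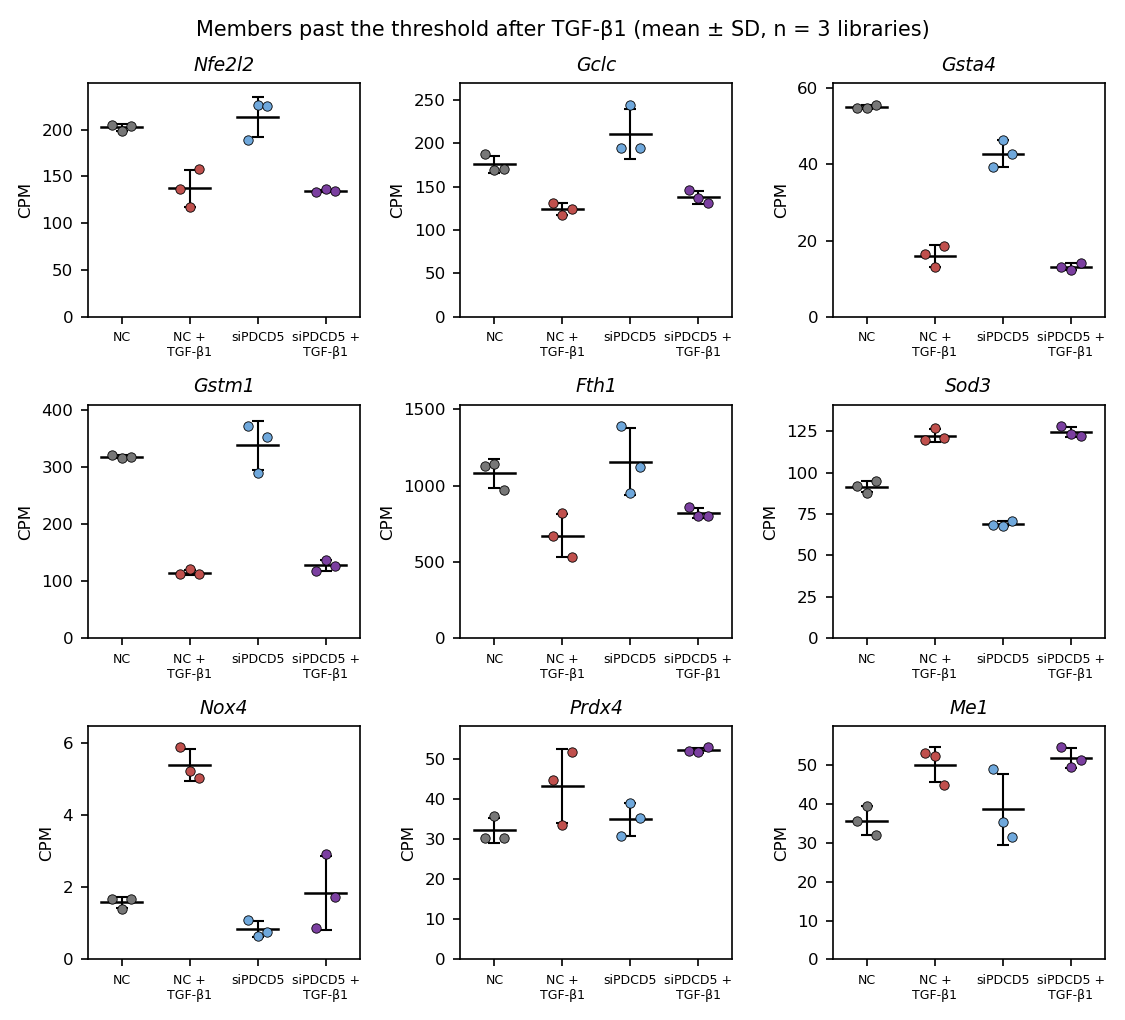
CPM per library in the 4 groups for 9 members called after TGF-β1 in at least 1 cell state; each point is a library, the horizontal line is the mean and the bar is the SD of 3 libraries, and each vertical axis starts at 0. Nfe2l2, Gclc, Gsta4, Gstm1 and Fth1 are lower with TGF-β1 and Sod3 is higher in both cell states, whereas Nox4 reaches 5.04 to 5.89 CPM only in NC + TGF-β1.

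The thioredoxin system reduces peroxiredoxins, which remove hydrogen peroxide, and sulfiredoxin, from Srxn1, rescues overoxidised peroxiredoxins. None of the 9 members of this role was called after TGF-β1 in NC cells, where 15.3% of all genes were called. In siPDCD5 cells 3 were called higher after TGF-β1 (33.3%, against 8.5% of all genes). Prdx4 (chrX:155323918-155340754, minus strand), the peroxiredoxin of the endoplasmic reticulum, was at 30.3, 35.8 and 30.2 CPM in untreated NC, 44.6, 33.5 and 51.8 in NC + TGF-β1, 30.6, 38.9 and 35.2 in untreated siPDCD5 and 51.8, 51.8 and 52.8 in siPDCD5 + TGF-β1. The siPDCD5 + TGF-β1 libraries had little spread, while NC + TGF-β1 replicate 2 stayed among the untreated libraries. The rise was called in siPDCD5 cells (log2 fold change 0.58, SE 0.14, edgeR adjusted p = 0.0118) and missed the threshold in NC cells (log2 fold change 0.43, SE 0.14, edgeR adjusted p = 0.0609), where it passed without NC + TGF-β1 replicate 2. The difference between the 2 responses was not past the threshold (interaction 0.15 (95% interval -0.29 to 0.58) on the log2 scale).

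Prdx6 (chr1:161240112-161251219, minus strand), a peroxiredoxin that also acts on phospholipids, was at 202, 179 and 197 CPM in untreated NC, 268, 209.8 and 240.2 in NC + TGF-β1, 167, 190.2 and 208 in untreated siPDCD5 and 239, 258 and 227 in siPDCD5 + TGF-β1. Treated and untreated libraries did not overlap in either cell state, and the rise was called in siPDCD5 cells (log2 fold change 0.36, SE 0.11, edgeR adjusted p = 0.0354) but not in NC cells (log2 fold change 0.31, SE 0.11, edgeR adjusted p = 0.068). Srxn1 (chr2:152105516-152111376, plus strand) was at 69.7, 63.1 and 63.6 CPM in untreated NC, 88.8, 67.9 and 75.9 in NC + TGF-β1, 67.5, 74.04 and 73.7 in untreated siPDCD5 and 94.9, 89.4 and 85.97 in siPDCD5 + TGF-β1. Its 3 siPDCD5 + TGF-β1 libraries included the highest value of the 12, and the rise in siPDCD5 cells (log2 fold change 0.33, SE 0.10, edgeR adjusted p = 0.0419) was close to that in NC cells (log2 fold change 0.24, SE 0.10, edgeR adjusted p = 0.139), which missed the threshold. Leaving out 1 library lost the Prdx6 call in siPDCD5 cells in 6 of 12 fits (NC replicate 1, siPDCD5 replicate 1 or 2, or any siPDCD5 + TGF-β1 library; adjusted p 0.0513 to 0.142). It lost the Srxn1 call in 9 of 12 (any library other than the 3 of NC + TGF-β1; adjusted p 0.0541 to 0.154). The Prdx6 call was also lost with quantile normalization (0.0534), and the Srxn1 call with upper-quartile factors (0.0564), quantile normalization (0.0565) and no filter on low counts (0.0605). Without NC + TGF-β1 replicate 2, Prdx6 and Srxn1 were called in NC cells as well.

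Txnrd1 (chr10:82833951-82897712, plus strand), thioredoxin reductase and an NRF2 target, was at 76.3, 74.99 and 60.9 CPM in untreated NC, 66.6, 57.3 and 75.3 in NC + TGF-β1, 66.7, 74.3 and 65.2 in untreated siPDCD5 and 75.4, 74.1 and 66.7 in siPDCD5 + TGF-β1. The groups overlapped in all comparisons, with a TGF-β1 log2 fold change of -0.09 (95% interval -0.34 to 0.16) in NC cells and 0.07 (95% interval -0.18 to 0.32) in siPDCD5 cells. Txn1, Prdx1, Prdx2, Prdx3 and Prdx5 were not called either, with TGF-β1 log2 fold changes from 0.02 (Prdx2) to 0.17 (Txn1) in NC cells and from -0.16 (Prdx1) to 0.11 (Txn1) in siPDCD5 cells. Prdx1, the major cytosolic peroxiredoxin, ranged from 549 to 909 CPM within NC + TGF-β1 and from 665 to 1067 CPM within siPDCD5. It shared 25.7% of its 3′ windows with other genes, so its reads and theirs may not be separated.

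**Figure D3:**
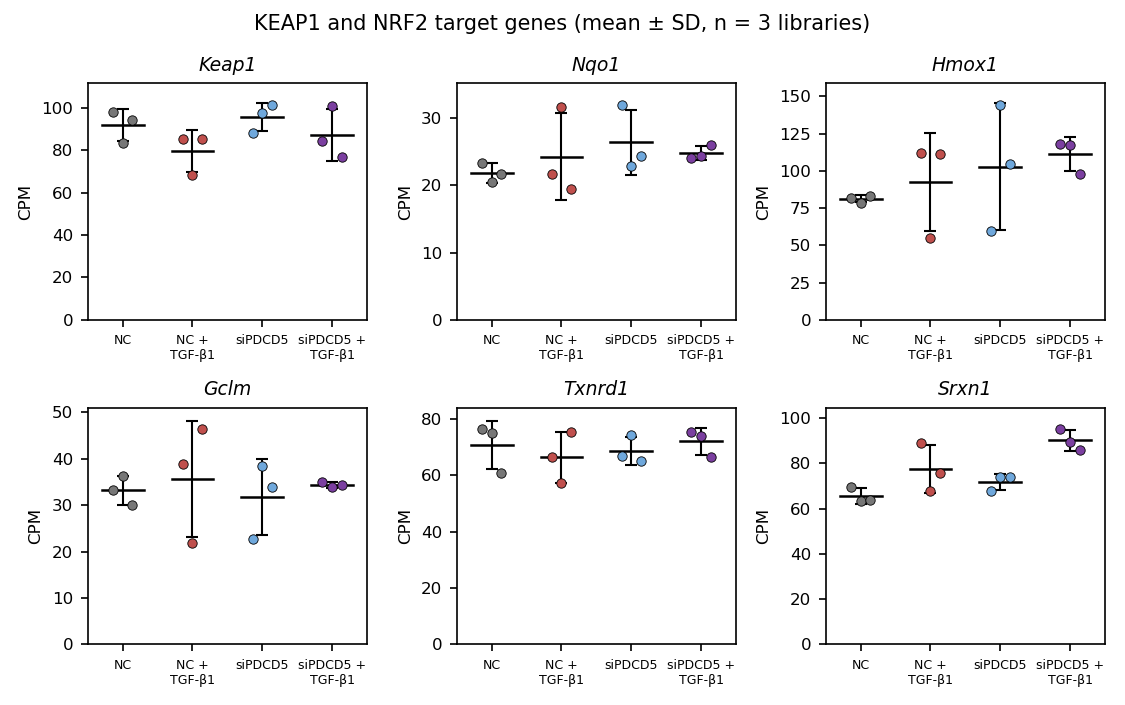
CPM per library in the 4 groups for Keap1 and the NRF2 target genes Nqo1, Hmox1, Gclm, Txnrd1 and Srxn1; each point is a library, the line is the mean and the bar is the SD of 3 libraries, and each vertical axis starts at 0. The groups overlap for every gene except Srxn1 in siPDCD5 cells, and the spread is widest in NC + TGF-β1 and siPDCD5 for Hmox1 and Gclm.

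Superoxide dismutases convert superoxide to hydrogen peroxide, in the cytosol (Sod1), mitochondria (Sod2) and extracellular space (Sod3), and catalase (Cat) breaks hydrogen peroxide down. Sod3 (chr5:52363791-52371418, plus strand) rose after TGF-β1 in both cell states and was lower after knockdown without TGF-β1. It was at 91.9, 87.97 and 94.8 CPM in untreated NC, 119.5, 127 and 121 in NC + TGF-β1, 68.6, 68.03 and 71.01 in untreated siPDCD5 and 128, 123 and 122 in siPDCD5 + TGF-β1. The 4 groups had little spread: siPDCD5 was lowest, NC was next, and the TGF-β1 groups overlapped at the top. The rise was called in NC cells (log2 fold change 0.42, SE 0.08, edgeR adjusted p = 0.00129) and siPDCD5 cells (log2 fold change 0.85, SE 0.08, edgeR adjusted p = 2.56e-06), and the knockdown difference without TGF-β1 (log2 fold change -0.40, SE 0.08, edgeR adjusted p = 0.00908) was called in all fits but the one without NC replicate 3 (adjusted p 0.0517). With TGF-β1 the knockdown difference was 0.03 (95% interval -0.14 to 0.19). The 2 knockdown comparisons share no library, and their difference, the interaction, was 0.43 (95% interval 0.20 to 0.66) with an unadjusted p of 0.00132 and an edgeR adjusted p of 0.736.

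Sod1, Sod2 and Cat were called in no comparison. Sod1 means were 997 ± 67.1 in untreated NC, 926 ± 188 in NC + TGF-β1, 1045 ± 182 in untreated siPDCD5 and 1106 ± 66.6 in siPDCD5 + TGF-β1 CPM (SD, n = 3 each), and Sod1 shared 18.2% of its 3′ windows with other genes. For Sod2 the TGF-β1 log2 fold change was 0.16 (95% interval -0.21 to 0.53) in NC and -0.13 (95% interval -0.50 to 0.23) in siPDCD5 cells, and for Cat -0.01 (95% interval -0.22 to 0.20) and 0.11 (95% interval -0.10 to 0.32).

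NADPH supplies the electrons of both the glutathione and the thioredoxin systems. Of its 5 producers, only Me1, malic enzyme, was called. Me1 (chr9:86581371-86695953, minus strand) was at 35.7, 39.3 and 31.9 CPM in untreated NC, 52.9, 52.2 and 44.8 in NC + TGF-β1, 48.9, 35.3 and 31.4 in untreated siPDCD5 and 54.5, 49.5 and 51.4 in siPDCD5 + TGF-β1. Treated and untreated libraries did not overlap in either cell state; the rise was called in NC cells (log2 fold change 0.49, SE 0.15, edgeR adjusted p = 0.0359) and missed the threshold in siPDCD5 cells (log2 fold change 0.43, SE 0.14, edgeR adjusted p = 0.0592). The call in NC cells was lost in 6 of 12 fits without 1 library (NC replicate 1 or 3, NC + TGF-β1 replicate 1 or any siPDCD5 + TGF-β1 library; adjusted p up to 0.156) and with upper-quartile factors (0.0573). In siPDCD5 cells Me1 was called by DESeq2, without the filter on low counts and with the replicate number as a block (adjusted p 0.0322 to 0.0410). It was also called there without NC + TGF-β1 replicate 2 or siPDCD5 replicate 1. Me1 overlaps A330041J22Rik on the opposite strand. The pentose phosphate pathway genes G6pdx, Pgd, Tkt and Taldo1 had TGF-β1 log2 fold changes of -0.13, 0.17, 0.20 and 0.15 in NC cells and -0.06, 0.22, 0.09 and 0.31 in siPDCD5 cells, and none was called. Taldo1 was called in siPDCD5 cells by DESeq2, with the replicate block and with only the 6 libraries compared (adjusted p 0.0306 to 0.0478). Pgd, 6-phosphogluconate dehydrogenase, did not overlap between groups in any of the 4 comparisons, yet its largest log2 fold change was 0.23, for the knockdown with TGF-β1.

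NOX4 is a hydrogen peroxide producing NADPH oxidase known as a TGF-β1 target in fibroblasts, and p22phox, from Cyba, is its membrane partner. Nox4 (chr7:87246096-87398710, plus strand) was counted at 22, 19 and 22 reads in untreated NC, 74, 70 and 69 in NC + TGF-β1, 15, 12 and 12 in untreated siPDCD5, and 13, 38 and 26 in siPDCD5 + TGF-β1. In CPM it was at 1.67, 1.41 and 1.69 CPM in untreated NC, 5.89, 5.23 and 5.04 in NC + TGF-β1, 1.11, 0.662 and 0.773 in untreated siPDCD5 and 0.872, 2.93 and 1.75 in siPDCD5 + TGF-β1. NC + TGF-β1 lay above every other library, and the siPDCD5 + TGF-β1 libraries spread from the untreated siPDCD5 level to 2.93 CPM. TGF-β1 raised Nox4 in NC cells (log2 fold change 1.76, SE 0.34, edgeR adjusted p = 0.00217), a 3.38-fold higher level, and the estimate in siPDCD5 cells missed the threshold (log2 fold change 1.12, SE 0.39, edgeR adjusted p = 0.0663). In siPDCD5 cells the rise was called by DESeq2 (DESeq2 adjusted p = 0.0461). It was also called without siPDCD5 + TGF-β1 replicate 1, the lowest library of its group (edgeR adjusted p = 0.0115). With TGF-β1, Nox4 was lower after knockdown (log2 fold change -1.55, SE 0.33, edgeR adjusted p = 0.0319), a level 2.94-fold lower, and without TGF-β1 the difference was -0.92 (95% interval -1.78 to -0.07).

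The 2 Nox4 responses to TGF-β1 were not shown to differ, since the interaction was -0.63 (95% interval -1.76 to 0.50) on the log2 scale with an unadjusted p of 0.251. The knockdown call with TGF-β1 was lost in 7 of 12 fits that left out 1 library (any NC library, NC + TGF-β1 replicate 1 or 3, or siPDCD5 + TGF-β1 replicate 1 or 3; adjusted p 0.0517 to 0.142) and with only the 6 libraries compared (0.149). Its log2 fold change stayed between -2.03 and -1.21 over all 19 alternative settings.

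Cyba (chr8:122424776-122432930, minus strand) had 9 to 49 counts in a library and was lower after knockdown in both media without passing the threshold by edgeR. DESeq2 called it lower in both media. In CPM, Cyba gave the following values. It was at 3.65, 2.74 and 2.69 CPM in untreated NC, 3.11, 3.66 and 2.49 in NC + TGF-β1, 1.698, 0.937 and 1.55 in untreated siPDCD5 and 0.604, 1.23 and 1.55 in siPDCD5 + TGF-β1. The siPDCD5 libraries lay below all NC libraries of the same treatment (log2 fold change -1.13, SE 0.34, edgeR adjusted p = 0.0911 without TGF-β1 and log2 fold change -1.45, SE 0.35, edgeR adjusted p = 0.0544 with it), and TGF-β1 gave a log2 fold change of 0.03 (95% interval -0.65 to 0.70) in NC cells. Gm20388 overlaps Cyba on the opposite strand.

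**Figure D4:**
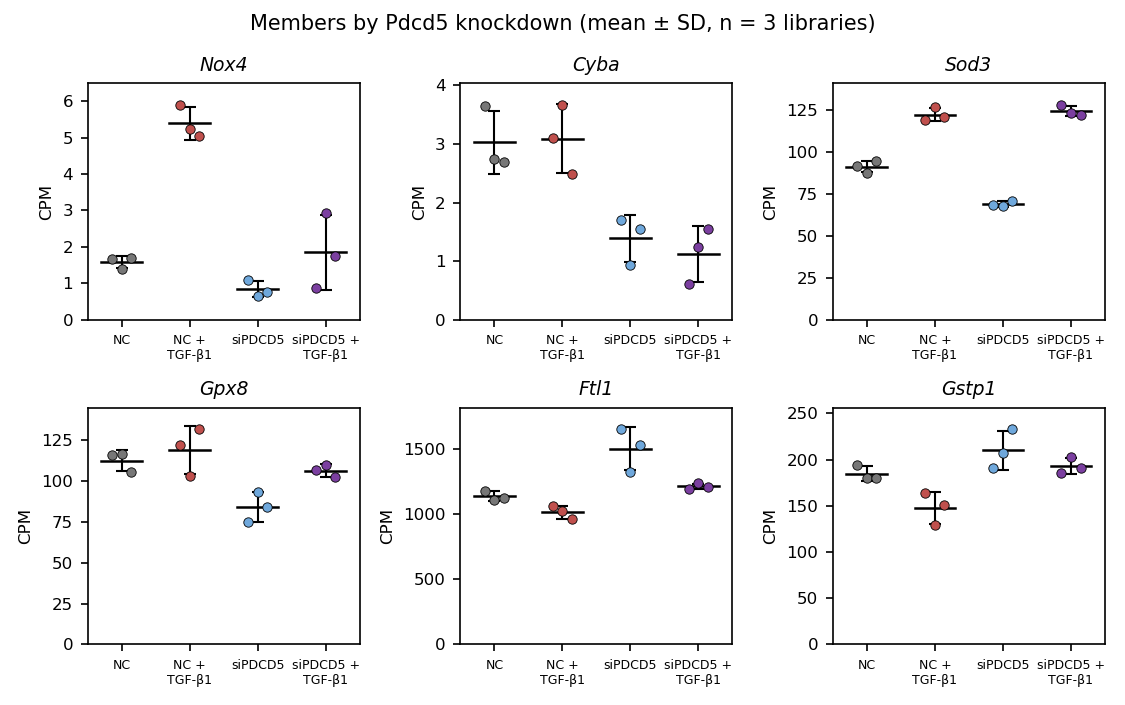
CPM per library in the 4 groups for Nox4, Cyba, Sod3, Gpx8, Ftl1 and Gstp1; each point is a library, the line is the mean and the bar is the SD of 3 libraries, and each vertical axis starts at 0. Nox4 lies at 5.04 to 5.89 CPM in NC + TGF-β1 against 0.872 to 2.93 CPM in siPDCD5 + TGF-β1, and untreated siPDCD5 libraries are lowest for Sod3 and Gpx8 and highest for Ftl1.

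Ferritin stores iron in a shell of light chains (Ftl1) and heavy chains (Fth1), which keeps iron from forming radicals. Both chains fell after TGF-β1 in siPDCD5 cells and Fth1 in NC cells. Fth1 (chr19:9980598-9985098, plus strand) was at 1128, 1140.2 and 969 CPM in untreated NC, 666, 817 and 532 in NC + TGF-β1, 1389.9, 954 and 1123 in untreated siPDCD5 and 857, 800.5 and 797 in siPDCD5 + TGF-β1. No library with TGF-β1 reached the lowest library without it. The fall was called in NC cells (log2 fold change -0.68, SE 0.15, edgeR adjusted p = 0.00601) and in siPDCD5 cells (log2 fold change -0.50, SE 0.15, edgeR adjusted p = 0.0375), the latter lost in 9 of 12 fits without 1 library (adjusted p 0.0504 to 0.158; kept only without NC + TGF-β1 replicate 2 or 3 or siPDCD5 replicate 2).

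Ftl1 (chr7:45457944-45459884, minus strand) was at 1179, 1111 and 1122 CPM in untreated NC, 1060.1, 1021 and 961 in NC + TGF-β1, 1649, 1326 and 1528 in untreated siPDCD5 and 1193, 1235 and 1208 in siPDCD5 + TGF-β1. The 4 groups did not overlap with one another: NC + TGF-β1 was lowest, followed by NC, siPDCD5 + TGF-β1 and siPDCD5. Ftl1 was called higher after knockdown without TGF-β1 (log2 fold change 0.40, SE 0.09, edgeR adjusted p = 0.025) and lower after TGF-β1 in siPDCD5 cells (log2 fold change -0.31, SE 0.09, edgeR adjusted p = 0.0304), and both comparisons contain the siPDCD5 libraries. With TGF-β1 the knockdown difference was a log2 fold change 0.26, SE 0.09, edgeR adjusted p = 0.202. The knockdown call was lost without any NC library and without siPDCD5 replicate 1 or 3 (5 of 12 fits, adjusted p 0.0690 to 0.121). The TGF-β1 call was lost without NC replicate 3, siPDCD5 replicate 1 or 3 or any siPDCD5 + TGF-β1 library (6 of 12 fits, adjusted p 0.0546 to 0.120). With only the 6 libraries compared, both were lost (adjusted p 0.0548 and 0.0656). Ftl1 shared 73.9% of its 3′ windows with other genes, mostly pseudogenes, and the files count reads with several alignments, so its level may include reads of those copies.

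**Figure D5:**
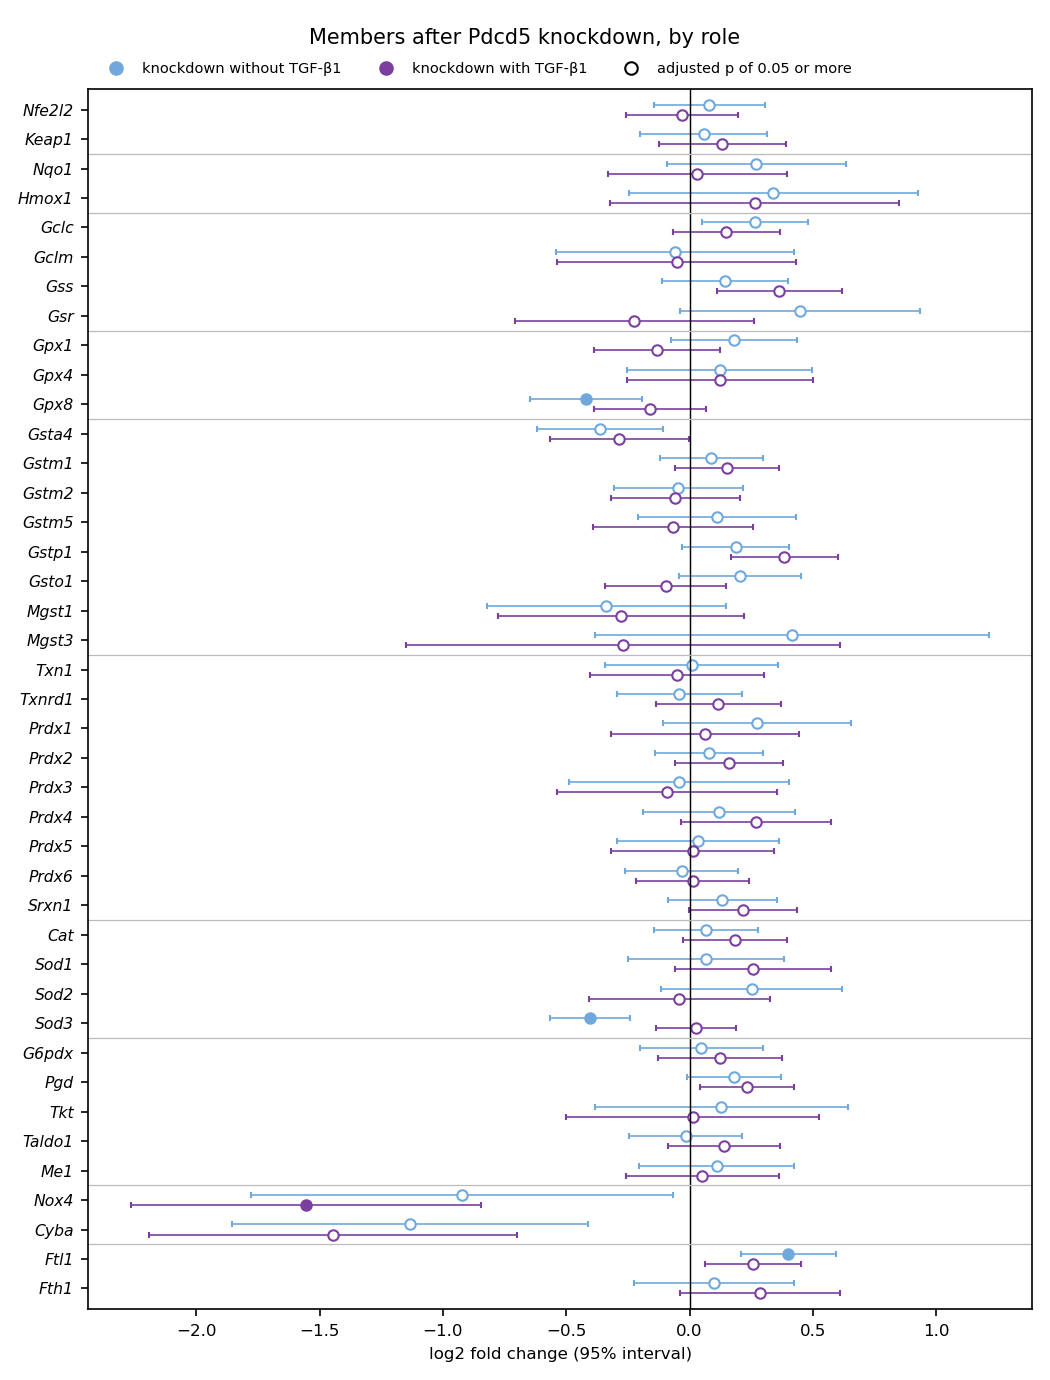
Log2 fold change after Pdcd5 knockdown without TGF-β1 (blue) and with TGF-β1 (purple) for the members, ordered by role with grey lines between roles; points are edgeR estimates, bars are 95% intervals, and filled points have an adjusted p under 0.05. Gpx3, Gpx7 and Gstt1 are not drawn; filled points are Gpx8, Sod3 and Ftl1 without TGF-β1 and Nox4 with it, and the intervals of Nox4 and Cyba are the widest of those far from 0.

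Summed over the 44 members, the level was 7687 to 8204 CPM in NC and 8216 to 9169 CPM in siPDCD5, and 6950 to 7385 CPM and 7758 to 7986 CPM with TGF-β1. The NC + TGF-β1 libraries were the lowest 3 and the siPDCD5 libraries the highest 3. The ferritins carried a large part of this order: without Ftl1 and Fth1 the sums were 5596 to 5897 CPM in NC and 5936 to 6263 CPM in siPDCD5, and 5456 to 5659 CPM and 5753 to 5950 CPM with TGF-β1, and NC then overlapped both TGF-β1 groups. The sums are descriptions and were not tested.

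Of the members, 6 can be read in both TGF-β1 comparisons, which share no library. Both comparisons used the same estimate of spread from all 12 libraries, so their calls are not independent. Nfe2l2, Gclc, Gsta4, Gstm1 and Fth1 were called lower and Sod3 higher in NC cells and again in siPDCD5 cells. Side by side, the log2 fold changes were -0.56 and -0.67 for Nfe2l2, -0.50 and -0.62 for Gclc, -1.78 and -1.70 for Gsta4, -1.47 and -1.41 for Gstm1, -0.68 and -0.50 for Fth1, and 0.42 and 0.85 for Sod3. No member had an interaction past the threshold by edgeR (lowest adjusted p 0.736, Sod3). At an unadjusted p under 0.05 there was 1 of 43, Sod3, where 5.13% of all genes were, and DESeq2 called 1 member, Sod3.

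Around the members, 104 other genes of the same pathways were listed, and 83 of them were tested. After TGF-β1, 13 were called higher and 11 lower in NC cells, 15.7% and 13.3% against 8.57% and 6.77% of all genes. In siPDCD5 cells 10 were called higher and 11 lower, 12% and 13.3% against 8.5% and 7.61% of all genes. Among those with a mean log2 CPM of 3 or more, the largest rises in NC cells were Mthfd2 (log2 fold change 1.45, SE 0.10, edgeR adjusted p = 2.02e-07), a mitochondrial folate enzyme, Chac1 (log2 fold change 1.36, SE 0.09, edgeR adjusted p = 1.95e-07), which degrades glutathione, and Slc3a2 (log2 fold change 0.91, SE 0.20, edgeR adjusted p = 0.00616), the heavy chain of the cystine transporter. Slc3a2 was at 214, 211 and 221 CPM in NC and at 324, 569.6 and 319.8 CPM in NC + TGF-β1. Without NC + TGF-β1 replicate 2 its log2 fold change was 0.58 (edgeR adjusted p = 0.00646), below that of Mafk at 0.92 and Slc40a1 at 0.68. The largest falls there were Aldh3a1 (log2 fold change -2.37, SE 0.12, edgeR adjusted p = 1.15e-08), an aldehyde dehydrogenase, Osgin1 (log2 fold change -1.67, SE 0.11, edgeR adjusted p = 1.56e-07), an oxidative stress induced gene, and Sepp1 (log2 fold change -1.35, SE 0.12, edgeR adjusted p = 1.53e-06), the selenium carrier selenoprotein P.

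In siPDCD5 cells Chac1 (log2 fold change 1.69, SE 0.10, edgeR adjusted p = 3.71e-08), Mthfd2 (log2 fold change 1.45, SE 0.10, edgeR adjusted p = 2.3e-07) and Mafk (log2 fold change 0.86, SE 0.18, edgeR adjusted p = 0.00442), a small MAF partner of NRF2, rose most. Aldh3a1 (log2 fold change -2.48, SE 0.12, edgeR adjusted p = 8.21e-09), Txnip (log2 fold change -1.96, SE 0.27, edgeR adjusted p = 0.00014), the thioredoxin inhibitor, and Osgin1 (log2 fold change -1.73, SE 0.11, edgeR adjusted p = 1.04e-07) fell most. Among 21 other NRF2 target genes, 5 were called higher and 5 lower in NC cells (23.8% each, against 8.57% and 6.77% of all genes), and 3 higher and 5 lower in siPDCD5 cells (14.3% and 23.8%, against 8.5% and 7.61%). Slc7a11, the cystine importer that supplies glutathione synthesis, was chosen after its values were seen, since its counts were below the level set for naming. It was called higher in NC cells (log2 fold change 2.40, SE 0.29, edgeR adjusted p = 3.4e-05) and in siPDCD5 cells (log2 fold change 2.32, SE 0.30, edgeR adjusted p = 8.97e-05).

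Knockdown called 3 of the 83 genes without TGF-β1, 3.61% against 3.44% of all genes, and 2 with it, 2.41% against 1.55%, so both shares were near the background. Without TGF-β1, Nqo2 (log2 fold change 0.55, SE 0.10, edgeR adjusted p = 0.00845), a quinone reductase, was higher, and Chac1 (log2 fold change -0.60, SE 0.10, edgeR adjusted p = 0.00294) and Slc40a1 (log2 fold change -0.49, SE 0.10, edgeR adjusted p = 0.0184), the iron exporter ferroportin, were lower. With TGF-β1, Gstt3 (log2 fold change -0.76, SE 0.16, edgeR adjusted p = 0.0319), a theta-class transferase, and Slc40a1 (log2 fold change -0.51, SE 0.10, edgeR adjusted p = 0.0205) were lower. The iron exporter was thus called lower in both knockdown comparisons. They share no library but use the same estimate of spread, so the calls of the iron exporter are not independent. Each of its calls was lost with only the 6 libraries compared (adjusted p 0.0525 and 0.0791) and in some fits that left out 1 library. These were 4 of 12 without TGF-β1 (NC replicate 1 or 3 or siPDCD5 replicate 2 or 3; up to 0.0976) and 5 of 12 with it (NC + TGF-β1 replicate 1 or 3 or any siPDCD5 + TGF-β1 library; up to 0.110). The Nqo2 call was lost without NC replicate 2 or 3 (up to 0.0588). The Gstt3 call was lost in 7 of 12 such fits (any NC library, NC + TGF-β1 replicate 1 or 3, or siPDCD5 + TGF-β1 replicate 1 or 3; up to 0.158), with quantile normalization (0.0564) and with only the 6 libraries compared (0.0907).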

How the data were processed

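RNA was measured by 3′ QuantSeq libraries, 1 per sample, in 12 samples of C22 cells. Per the labels, RNA came from Trizol extraction and reads were mapped with Bowtie2 to mm10. Per the study's methods the authors counted unique and multiple alignments with Bedtools, and quantile normalized afterwards. The deposited files hold whole-number read counts per gene that carry no normalization. The annotation and the use of strand are not given in the sources used here. Multiple alignments can add reads of pseudogenes and paralogs.

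The counts were analysed with edgeR 4.0.16 in R 4.3.3: the default expression filter kept 12425 of 23282 rows, TMM scaled the libraries, and the quasi-likelihood test used 1 model with the 4 groups. Adjusted p is Benjamini-Hochberg over all genes tested, SE is the log2 fold change over the root of F, and CPM uses TMM-scaled sizes. For low members precision is set by their counts: 3 counts are 0.165 to 0.239 CPM, and this floor covers counting error only. The code was tested on simulated data. Alternatives used upper-quartile factors, DESeq2 1.42.0, quantile normalization with limma 3.58.1, other filters, only the libraries compared, a replicate block, and leaving out each library.

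Gene positions and overlaps are from GENCODE M21 (GRCm38). Members and pathway lists were chosen with earlier results of these data known. All 44 members are accounted for; values in every library are given for members past the threshold in any of the 4 comparisons and for Nfe2l2, Keap1, Nqo1, Hmox1, Gclc, Gclm, Txnrd1, Srxn1 and Nox4. Cyba was added for its pairing with Nox4 after its values were seen. Of the other pathway genes, those named are the 3 called with the largest rise and the 3 with the largest fall in a comparison, where the mean log2 CPM was 3 or more. Upstream sequence was sought for the 6 called members with the largest log2 fold change.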

Additional observations from a re-analysis of the deposited data

How the results depend on the processing

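Over 19 alternatives, Nfe2l2, Gclc, Gsta4, Gstm1 and Sod3 in both TGF-β1 comparisons, Nox4 and Fth1 in NC cells and Prdx4 in siPDCD5 cells stayed past the threshold in the same direction, and no called member or pathway gene changed direction. The member medians did change sign, for TGF-β1 in NC cells without NC + TGF-β1 replicate 2, in siPDCD5 cells without siPDCD5 + TGF-β1 replicate 1, and for the interaction without NC, NC + TGF-β1 or siPDCD5 + TGF-β1 replicate 2. Members called under knockdown with TGF-β1, 1 as reported (Nox4), were 3 with DESeq2 (adding Gstp1 and Cyba), 2 with quantile normalization (adding Gstp1), 2 without the filter (adding Cyba) and 0 in the 6 libraries compared. Without TGF-β1 the knockdown called 1 member in the 6 libraries compared, and DESeq2 added Cyba (adjusted p 0.0485). DESeq2 called 1 interaction. For TGF-β1, DESeq2 added Prdx4 and Prdx6 in NC cells and Gpx7, Taldo1, Me1 and Nox4 in siPDCD5 cells. In NC cells, quantile normalization added Ftl1 and the fit without the filter added Mgst1. In siPDCD5 cells, quantile normalization added Gpx7 and Gstm2, and the fit without the filter added Me1. The 6 libraries compared added Mgst1 and Taldo1 there. Other pathway genes called under knockdown were 5 without TGF-β1 by DESeq2, and with TGF-β1 1 by quantile normalization and 0 in the 6 libraries compared; the causes were not tested. Leaving out 1 library gave 7 to 13 members for TGF-β1 in NC cells, 6 to 16 in siPDCD5 cells, 0 to 4 for knockdown without and 0 to 2 with TGF-β1, and 0 for the interaction. The median log2 fold changes then ran from -0.0048 to 0.094, -0.043 to 0.016, 0.043 to 0.10, 0.014 to 0.079 and -0.024 to 0.057. TGF-β1 in siPDCD5 cells called 7 members without NC replicate 1, siPDCD5 replicate 1 or siPDCD5 + TGF-β1 replicate 1 or 3, and 6 without siPDCD5 + TGF-β1 replicate 2. The knockdown without TGF-β1 called 1 without NC replicate 1 or 2 or siPDCD5 replicate 1 or 3 and 0 without NC replicate 3. The knockdown with TGF-β1 called 0 without any NC library, NC + TGF-β1 replicate 1 or 3 or siPDCD5 + TGF-β1 replicate 1 or 3, and 2 without siPDCD5 replicate 1. Leaving out NC + TGF-β1 replicate 2 gave 13 and 16 members for TGF-β1.

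The labels do not say whether same-numbered libraries were paired. The correlation of their deviations ran from 0.0074 to 0.17 for TGF-β1 in NC cells and -0.055 to 0.034 in siPDCD5 cells. For the knockdown it ran from -0.031 to 0.080 without and -0.32 to -0.036 with TGF-β1. In this order, 5, 2, 1 and 0 of 6 libraries correlated best with their own number, so pairing was not settled. With the number as a replicate block the fit called 8, 10, 2, 0 and 0 members in the order above, and 1 other pathway gene for the knockdown with TGF-β1. The calls lost there were Gstp1 in NC cells, Gpx8, Mgst3, Prdx6 and Srxn1 in siPDCD5 cells, Gpx8 under knockdown, and Nox4 and Gstt3 under knockdown with TGF-β1 (adjusted p 0.0541 to 0.0929). The member calls gained there were Taldo1 and Me1 in siPDCD5 cells.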

Other observations

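Within their groups, NC + TGF-β1 replicate 2 and siPDCD5 replicate 1 deviated in many of the same members, which was not counted over all genes. Both were the highest of their group for 12 members, among them Nqo1, Gsr, Gpx1, Gsto1, Prdx1, Prdx5, Sod2 and Fth1, and both the lowest for 18, among them Nfe2l2, Keap1, Hmox1, Gclm, Gpx4, Prdx2, Sod1 and Tkt. They lay at opposite ends for 1 member, Gstt1. The median distance on the log2 scale from the mean of the other 2 libraries of the group was 0.363 for NC + TGF-β1 replicate 2 and 0.271 for siPDCD5 replicate 1, against 0.286 for NC + TGF-β1 replicate 3, 0.242 and 0.148 for siPDCD5 replicates 2 and 3, and 0.0760 to 0.124 over the other 7 libraries. These libraries carry different labels, and the cause was not tested.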
